A study of Homo sapiens with 16 samples.

Results

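MRG15 and MRGX are paralogous chromatin proteins encoded by MORF4L1 on chromosome 15 and MORF4L2 on chromosome X, and the comparison described here set a knockdown of one directly against a knockdown of the other. Of the 12 RNA libraries among the 16 samples of the series, 4 formed this comparison: siMRG15 replicates 1 and 2, transfected with an siRNA pool against MRG15, and siMRGX replicates 1 and 2, with a pool against MRGX. The siLuc libraries, 2 with an siRNA against luciferase, which these cells do not carry, show where the control lay. All came from U2OS, an established human osteosarcoma cell line grown in DMEM with serum, and poly(A) RNA was sequenced. A knockdown lowers a transcript without removing the gene, and a pool is not a single defined sequence. The labels do not state separate cultures for the replicates of a group. A p-value here therefore reflects only how far these libraries spread, and that spread may be technical. The members were all 8808 genes of the authors' table of genes they had selected as differentially expressed, after repeated rows were removed. Every count is therefore among selected genes.

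Both proteins carry an MRG domain, through which they join the TIP60 (NuA4) histone acetyltransferase complex, by way of the adaptor MRGBP, and histone deacetylase complexes built on SIN3. MRG15 also carries a chromodomain that binds histone H3 methylated at lysine 36, a mark of transcribed gene bodies, whereas MRGX lacks it. MRG15 is also known as a partner of the splicing regulator PTBP1 and of the recombination protein PALB2.

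The transcriptomes after the 2 knockdowns differed widely. Genes of cholesterol and fatty acid synthesis, NF-kB targets, NRF2 and ATF4 stress genes and ribosome biogenesis genes were mostly higher in siMRGX, among them SQLE, TRAF1, HMOX1, GCLM and MSMO1. Genes of the p53 response, of Wnt signalling and of the insulin-like growth factor axis were mostly higher in siMRG15, among them FDXR, KREMEN1 and INSR. For many of the genes named below the siLuc level lay between the levels of the knockdowns, and for others 1 of the paralog knockdowns stood apart from siLuc more than the other. Unless others are named, words such as high, low or lowest compare these 3 groups. For several genes that stood apart from siLuc in 1 paralog knockdown, the levels after knockdown of MRGBP, BRD8 or TIP60 are given as values, without a test.

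Levels are in CPM, counts scaled to the size of the library. A difference is siMRG15 minus siMRGX on the log2(CPM + 1) scale ± SE, n = 2 libraries a group, so a positive value is a higher level in siMRG15, and the added 1 understates the change of low genes. The adjusted p is that of limma over all 8808 genes, with a threshold of 0.05. Each knockdown is also set beside siLuc, but both of those comparisons use the same siLuc libraries and are not independent of each other. The effective sizes of the siMRG15 libraries were 67359901 and 94945989 reads, and those of the siMRGX libraries 69666158 and 71498441. The listed genes took 30.4 and 31.1% of the siMRG15 libraries, 37.0 and 37.1% of the siMRGX libraries, and 35.5 and 34.6% of the siLuc libraries. What this gap in the listed share does to the differences was not tested beyond the scalings given below.

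Both targets were low where their siRNA was used. MORF4L1, the MRG15 gene, stood at 315 and 328 CPM in siLuc, 15.7 and 13.7 in siMRG15 and 317 and 310 in siMRGX. The siMRG15 pair was low, with no overlap (difference -4.32 ± 0.07, limma adjusted p = 5.66e-13), and siMRGX did not differ from siLuc beyond the error (-0.04 ± 0.07, limma adjusted p = 0.639). MORF4L2, the MRGX gene, stood at 240 and 298 CPM in siLuc, 157 and 158 in siMRG15 and 20.3 and 19.5 in siMRGX. The siMRGX pair was the lowest (difference 2.92 ± 0.09, limma adjusted p = 9.51e-11), and the siMRG15 pair also lay below both siLuc libraries (-0.76 ± 0.09, limma adjusted p = 1.19e-05). The lower MORF4L2 of siMRG15 was not particular to that knockdown. MORF4L2 stood at 206 and 175 CPM in siMRGBP, 173 and 176 in siBRD8 and 141 and 138 in siTIP60. These libraries all lay under both siLuc libraries. MORF4L1 stood at 292 and 275 CPM in siMRGBP, 332 and 341 in siBRD8 and 202 and 206 in siTIP60. It was under both siLuc libraries in siMRGBP and siTIP60. None of these libraries was as low as those of the gene's own siRNA. MORF4L1P1, a processed pseudogene of MORF4L1, stood at 17.3 and 14.2 CPM in siLuc, 0.416 and 0.590 in siMRG15 and 15.7 and 17.3 in siMRGX (difference -3.54 ± 0.10, limma adjusted p = 5.27e-11). It moved as MORF4L1 did, and since the copies are near-identical its reads cannot be told with certainty from those of MORF4L1.

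The authors' deposited table of transcripts held no direct mark between the paralog knockdowns, only marks of each against siLuc. It listed 6 transcripts of MORF4L1, of which 5 were marked down in siMRG15 and 0 in siMRGX. For MORF4L2 it listed 8, of which 7 were marked down in siMRGX and 1 in siMRG15. Over its 25895 transcripts, the authors' deposited table marked 3359 down and 1889 up in siMRG15, and 3652 down and 2122 up in siMRGX.

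The libraries of siMRG15 and siMRGX differed in 6559 of 8808 genes (74.5%), with 3597 higher in siMRG15 (40.8%) and 2962 higher in siMRGX (33.6%). Among them 1040 (11.8%) were at least 2-fold higher in siMRG15 and 773 (8.78%) at least 2-fold higher in siMRGX. The libraries did not overlap between the groups in 7802 genes (88.6%), whether or not these passed the test. The median difference over all genes was 0.06, with quartiles at -0.42 and 0.60. The excess of genes higher in siMRG15 varied with the setting. With TMM factors 3462 were higher in siMRG15 and 3138 in siMRGX, but with median-of-ratios factors 3198 and 3441, and among genes with a mean of at least 5 CPM 1903 and 2238. No gene past the threshold passed it with the opposite sign under any of the settings tried.

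The direction varied with abundance when the genes were cut into 5 equal groups by mean level over the 12 libraries. In the highest group (49.9 to 6439 CPM), 23.9% were higher in siMRG15 and 59.1% in siMRGX, with a median difference of -0.36. In the middle group (3.76 to 14.3 CPM) the order was the opposite, with 54.8% higher in siMRG15 and 27.2% in siMRGX and a median of 0.35. The group below it (1.16 to 3.76 CPM) had 49.6% higher in siMRG15 and 20.7% in siMRGX.

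**Figure D1:**
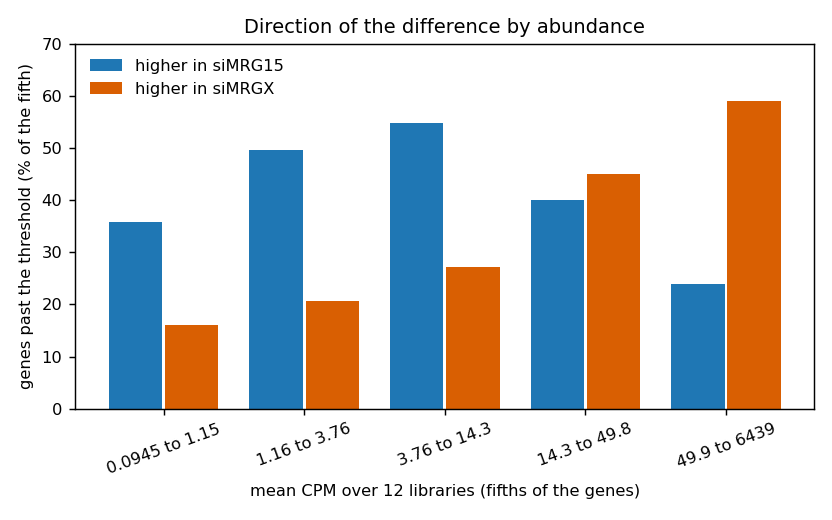
Share of genes past the threshold (limma adjusted p under 0.05, y axis, % of each group of genes) against mean CPM over 12 libraries (x axis, 8808 genes in 5 equal groups), with blue bars for genes higher in siMRG15 and orange bars for genes higher in siMRGX. Blue bars are the taller in the 3 lower groups and orange bars in the 2 upper ones, up to 59.1% in the highest group.

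Of the TIP60 complex 9 of 19 listed subunits, the paralogs included, had a row, and 2 were higher in siMRG15 and 6 in siMRGX (median -0.19). ACTL6A, the actin-related BAF53a subunit, stood at 71.3 and 73.7 CPM in siLuc, 33.8 and 35.0 in siMRG15 and 72.6 and 73.1 in siMRGX. Both siMRG15 values were under those of every other library shown and siMRGX lay at the siLuc level (difference -1.06 ± 0.06, limma adjusted p = 3.29e-09). RUVBL1, an AAA+ ATPase of the complex, stood at 81.0 and 76.5 CPM in siLuc, 48.9 and 50.5 in siMRG15 and 85.8 and 90.9 in siMRGX, again lowest in siMRG15 and without overlap (difference -0.82 ± 0.06, limma adjusted p = 6.63e-08). MRGBP, the adaptor that both paralogs bind, stood at 91.4 and 115 CPM in siLuc, 67.7 and 69.1 in siMRG15 and 98.6 and 104 in siMRGX. The siMRG15 pair was lowest (difference -0.56 ± 0.09, limma adjusted p = 6.70e-05) and siMRGX did not differ from siLuc beyond the error (-0.02 ± 0.09, limma adjusted p = 0.846).

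The other subunits differed little. KAT5, the TIP60 acetyltransferase itself, stood at 19.7 and 18.8 CPM in siLuc, 17.4 and 17.5 in siMRG15 and 19.5 and 20.6 in siMRGX, a narrow gap that passed the threshold (difference -0.19 ± 0.07, limma adjusted p = 0.0278) and missed it under 4 of the 13 alternatives. BRD8, the bromodomain subunit, stood at 80.0 and 73.5 CPM in siLuc, 74.0 and 78.9 in siMRG15 and 77.6 and 74.9 in siMRGX, and its groups overlapped (difference 0.00 ± 0.07, limma adjusted p = 0.976). The chromatin reader MBTD1 (difference -0.19 ± 0.07, limma adjusted p = 0.0262) was slightly higher in siMRGX and the YEATS-domain reader YEATS4 (difference 0.24 ± 0.08, limma adjusted p = 0.0162) slightly higher in siMRG15. Each of those calls was lost when 1 library was left out: without siMRGX replicate 2 the limma adjusted p was 0.168 for MBTD1 and 0.187 for YEATS4, and for KAT5 it was 0.162.

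Among the SIN3 deacetylase subunits 4 of 23 had a row, 3 higher in siMRG15 and 0 in siMRGX (median 0.32). BRMS1L, a SIN3 subunit related to the metastasis suppressor BRMS1, stood at 17.6 and 20.3 CPM in siLuc, 27.4 and 33.1 in siMRG15 and 11 and 11.4 in siMRGX. It lay above siLuc in siMRG15 and below it in siMRGX, with no overlap (difference 1.35 ± 0.09, limma adjusted p = 3.00e-08). ARID4A, a retinoblastoma-binding subunit, had a smaller difference (0.45 ± 0.08, limma adjusted p = 2.13e-04). It lay below siLuc in siMRGX (-0.28 ± 0.08, limma adjusted p = 0.00677). In siMRG15 ARID4A did not pass against siLuc (0.16 ± 0.08, limma adjusted p = 0.0878). RBBP4, the histone-binding subunit shared with other complexes, stood at 161 and 175 CPM in siLuc, 83.4 and 87.9 in siMRG15 and 93.1 and 92.3 in siMRGX. It was low in both knockdowns, and the gap between them missed the threshold (difference -0.11 ± 0.06, limma adjusted p = 0.0982). C11orf30, the older name of EMSY, had a difference of 0.20 ± 0.07 (limma adjusted p = 0.0217), which fell to 0.05 with median-of-ratios factors (limma adjusted p = 0.51). Elsewhere in the MRG family MSL3, which carries its own MRG domain, had a difference of -0.19 ± 0.07 (limma adjusted p = 0.0286), lost without siMRG15 replicate 1 (limma adjusted p = 0.168), and its pseudogene MSL3P1 a difference of -0.06 ± 0.07 (limma adjusted p = 0.442), with the same doubt about shared reads.

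**Figure D2:**
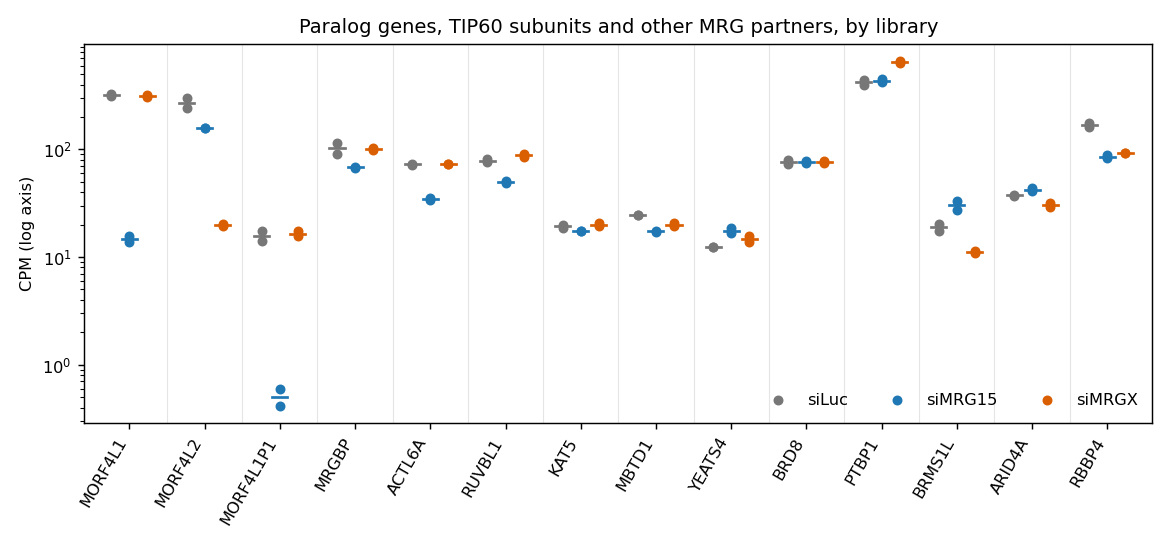
CPM by library (y axis, log scale) for 14 genes of the paralogs, the TIP60 and SIN3 complexes and PTBP1, with grey points for siLuc, blue for siMRG15, orange for siMRGX and bars for group means. Of the 3 groups drawn, MORF4L1 and MORF4L1P1 are low in siMRG15, MORF4L2 is lowest in siMRGX, and ACTL6A, RUVBL1 and MRGBP are lowest in siMRG15, with ACTL6A at 33.8 and 35.0 CPM.

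The largest difference toward siMRG15 was that of SHC2. SHC2, a signalling adaptor, stood at 3.66 and 3.52 CPM in siLuc, 21.8 and 22.6 in siMRG15 and 0.890 and 0.825 in siMRGX. KCNC1, a voltage-gated potassium channel, stood at 7.19 and 5.23 CPM in siLuc, 23.4 and 24.2 in siMRG15 and 1.06 and 1.12 in siMRGX. In both genes siLuc lay between the knockdowns and no libraries overlapped (SHC2 difference 3.64 ± 0.10, limma adjusted p = 5.07e-11; KCNC1 difference 3.57 ± 0.11, limma adjusted p = 9.45e-11). VGF, a secreted neuropeptide precursor and the most abundant of these genes, stood at 688 and 540 CPM in siLuc, 947 and 1067 in siMRG15 and 101 and 106 in siMRGX. It was higher than siLuc in siMRG15 (0.72 ± 0.10, limma adjusted p = 2.20e-05) and lower in siMRGX (-2.55 ± 0.10, limma adjusted p = 5.43e-10). SLC17A7, a vesicular glutamate transporter, stood at 5.39 and 5.81 CPM in siLuc, 27.8 and 30.9 in siMRG15 and 3.67 and 2.94 in siMRGX (difference 2.82 ± 0.10, limma adjusted p = 1.15e-10), and the sodium channel subunit SCN3B at 1.07 and 1.67 CPM in siLuc, 11 and 11.6 in siMRG15 and 0.445 and 0.364 in siMRGX (difference 3.13 ± 0.12, limma adjusted p = 2.56e-10). In these genes the siMRG15 pair stood highest, and the siMRGX pair stood lowest.

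The other genes of the 12 largest toward siMRG15, besides MORF4L2, were C14orf132, the noncoding RNA LINC00473, the small GTPase-like RAB40B, the reticulon RTN1, AGAP2 and the diacylglycerol kinase DGKK, with differences of 3.28, 3.19, 3.18, 3.17, 3.11 and 3.02. DGKK lay apart from siLuc mainly in siMRGX, at 9.67 and 9.42 CPM in siLuc, 12.1 and 11.8 in siMRG15 and 0.603 and 0.587 in siMRGX. RAB40B lay apart mainly in siMRG15, at 2.80 and 2.64 CPM in siLuc, 19.9 and 20.9 in siMRG15 and 1.45 and 1.29 in siMRGX. LINC00473 stood at 7.88 and 6.84 CPM in siLuc, 16.9 and 18.5 in siMRG15 and 1.12 and 0.979 in siMRGX, and in siMRGBP, siBRD8 and siTIP60 no library was above 0.516 CPM, so the siMRG15 libraries were the highest of the 12.

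Toward siMRGX the largest difference was that of MMP3, a secreted matrix metalloproteinase, at 24.5 and 25 CPM in siLuc, 6.80 and 7.67 in siMRG15 and 172 and 184 in siMRGX. It was lower than siLuc in siMRG15 (-1.65 ± 0.16, limma adjusted p = 1.48e-06) and higher in siMRGX (2.80 ± 0.16, limma adjusted p = 1.37e-08), a direct difference of -4.45 ± 0.16 (limma adjusted p = 1.75e-10). Across siMRGBP, siBRD8 and siTIP60 it ranged from 19.6 to 85.5 CPM, between the paralog knockdowns. TGM2, the tissue transglutaminase that cross-links proteins, stood at 120 and 114 CPM in siLuc, 56.0 and 59.5 in siMRG15 and 422 and 428 in siMRGX. Both knockdowns lay well apart from siLuc, on opposite sides (difference -2.86 ± 0.07, limma adjusted p = 2.33e-11). FGF5, a fibroblast growth factor, stood at 9.24 and 9.11 CPM in siLuc, 5.24 and 4.47 in siMRG15 and 40.6 and 38.3 in siMRGX (difference -2.79 ± 0.09, limma adjusted p = 8.00e-11), and MYCT1 at 4.06 and 5.47 CPM in siLuc, 1.74 and 1.79 in siMRG15 and 24.4 and 23.7 in siMRGX (difference -3.18 ± 0.14, limma adjusted p = 8.81e-10). SOWAHC, an ankyrin-repeat protein, stood at 111 and 121 CPM in siLuc, 34.5 and 32.1 in siMRG15 and 235 and 218 in siMRGX (difference -2.73 ± 0.07, limma adjusted p = 2.33e-11). All 3 had the siMRG15 libraries below and the siMRGX libraries above both siLuc libraries. The remaining genes of the 12 toward siMRGX, apart from MORF4L1 and MORF4L1P1, were TRAF1, HMOX1, IL8, BIRC3 and SLC7A11, which stand with their lists below.

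**Figure D3:**
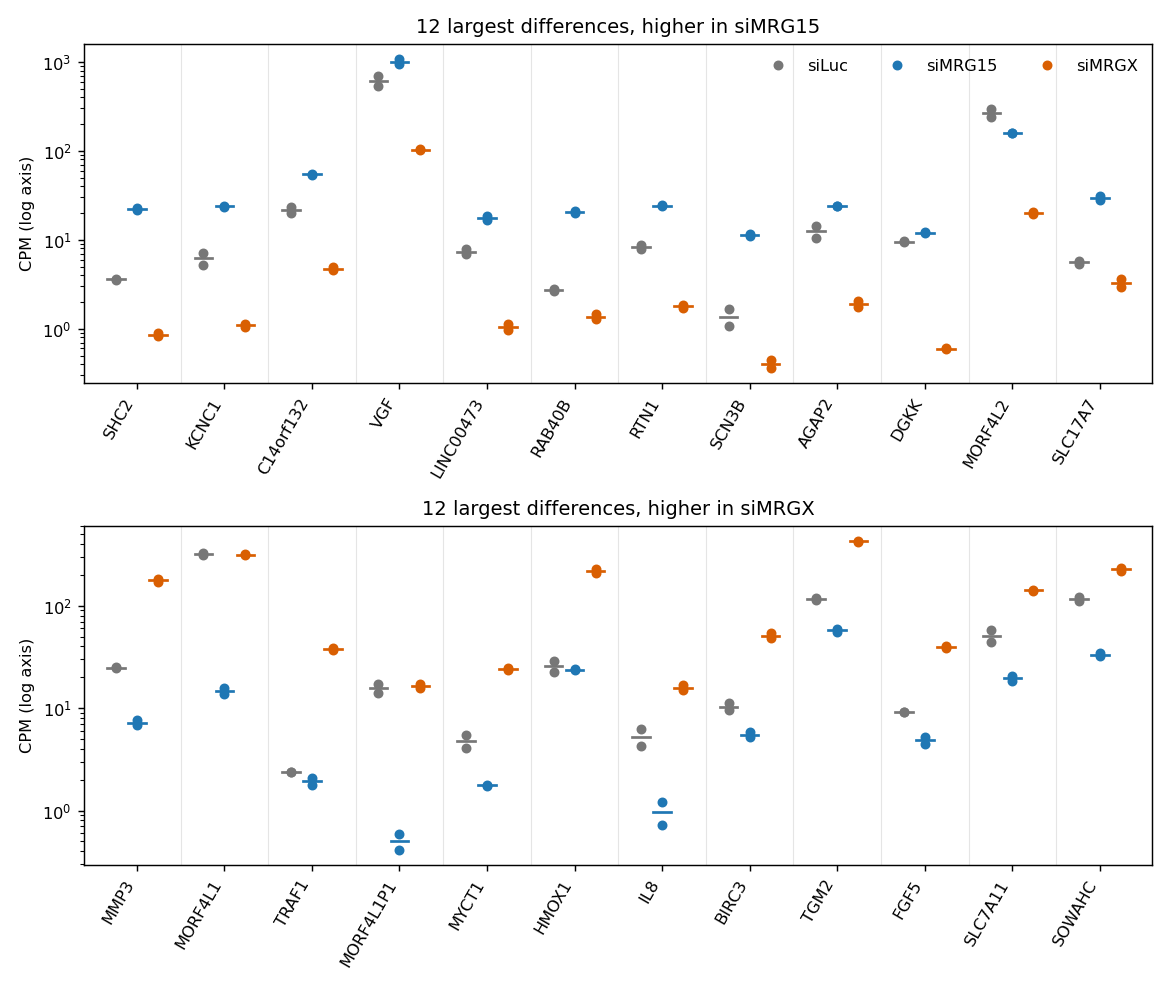
CPM by library (y axis, log scale) for the 12 genes with the largest difference higher in siMRG15 (upper panel) and the 12 higher in siMRGX (lower panel), with grey points for siLuc, blue for siMRG15, orange for siMRGX and bars for group means. Blue and orange points never overlap, because only genes without overlap were chosen. For most genes siLuc lies between them, with TRAF1 and HMOX1 among those where siLuc lies near siMRG15.

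Sterol synthesis genes lay almost all on the same side. Of 25 listed genes of cholesterol synthesis and uptake 15 had a row, and 14 of these were higher in siMRGX and 1 in siMRG15 (median -1.26), beside 33.6 and 40.8% over all genes and a median of 0.06. The same background over all genes stands beside every list, but it varied with abundance. In the highest group by mean level 59.1% were higher in siMRGX and 23.9% in siMRG15, with a median of -0.36. The lists were not matched for abundance, so a list of abundant genes may lean to siMRGX no more than that group did. A gene that differed between these knockdowns could enter the authors' table for that reason, so the counts of a list describe its listed members and support nothing beyond them. In 13 of the 15 cholesterol genes the difference was at least 2-fold. MSMO1, the sterol methyl oxidase, stood at 81.8 and 102 CPM in siLuc, 28.9 and 27.1 in siMRG15 and 146 and 139 in siMRGX. SQLE, squalene epoxidase, which commits squalene to sterols, stood at 144 and 143 CPM in siLuc, 89.2 and 90.4 in siMRG15 and 244 and 235 in siMRGX. In both genes siMRG15 was lowest and siMRGX highest, with no overlap (MSMO1 difference -2.31 ± 0.09, limma adjusted p = 3.68e-10; SQLE difference -1.40 ± 0.06, limma adjusted p = 3.25e-10). DHCR7, which makes cholesterol from its last precursor, stood at 76.2 and 83.9 CPM in siLuc, 44.0 and 47.0 in siMRG15 and 142 and 139 in siMRGX (difference -1.60 ± 0.07, limma adjusted p = 4.36e-10). INSIG1, the sterol-sensing retention protein of the pathway and itself a target of SREBP, stood at 17.9 and 17.1 CPM in siLuc, 9.58 and 10.0 in siMRG15 and 34.7 and 32.5 in siMRGX (difference -1.68 ± 0.07, limma adjusted p = 7.07e-10). Both had the same order of the groups. HMGCS1, the synthase of an early step, had a difference of -1.21. HMGCS1, SREBF2 and HSD17B7 were picked after their values were seen. HSD17B7, a ketosteroid reductase, was the exception, higher in siMRG15 (difference 0.69 ± 0.08, limma adjusted p = 7.52e-06). The summed level of the 15 genes was 817 and 856 CPM in siMRG15, 1276 and 1269 in siLuc, and 2020 and 1989 in siMRGX. SREBF2, which encodes the master transcription factor of the pathway, was itself among the genes higher in siMRGX (difference -0.82 ± 0.07, limma adjusted p = 4.28e-07).

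Fatty acid synthesis went the same way, with 6 of 7 measured genes (of 13 listed) higher in siMRGX and 1 in siMRG15 (median -1.08). ACLY, which makes cytosolic acetyl-CoA from citrate, stood at 603 and 541 CPM in siLuc, 271 and 281 in siMRG15 and 696 and 710 in siMRGX. ME1, the cytosolic malic enzyme that supplies NADPH, stood at 42.3 and 44.0 CPM in siLuc, 16.6 and 18.2 in siMRG15 and 47.5 and 46.1 in siMRGX. For both genes the siMRG15 libraries were the low ones (ACLY difference -1.34 ± 0.07, limma adjusted p = 2.57e-09; ME1 difference -1.38 ± 0.06, limma adjusted p = 7.73e-10). Against siLuc, siMRGX was higher for ACLY (0.30 ± 0.07, limma adjusted p = 0.00201) and did not pass for ME1 (0.11 ± 0.06, limma adjusted p = 0.115). LPIN1, a phosphatidate phosphatase, stood at 95 and 89.1 CPM in siLuc, 54.1 and 57.0 in siMRG15 and 151 and 155 in siMRGX and differed from siLuc both ways (difference -1.45 ± 0.08, limma adjusted p = 3.07e-09). ACSS2, the acetyl-CoA synthetase that uses acetate, went against the rest at 13.7 and 13.5 CPM in siLuc, 26.2 and 27.2 in siMRG15 and 12.6 and 12.5 in siMRGX, higher in siMRG15 (difference 1.03 ± 0.06, limma adjusted p = 9.66e-09). It stood at 23.6 and 23.0 CPM in siMRGBP, 20.7 and 19.6 in siBRD8 and 25.1 and 24.1 in siTIP60, so siMRGX was the knockdown at the siLuc level.

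Targets of NRF2, the transcription factor of the oxidative stress response, were higher in siMRGX in 11 of 13 measured genes (of 21 listed) and higher in siMRG15 in 1 (median -1.38), and 9 differed at least 2-fold. HMOX1, heme oxygenase 1, stood at 22.7 and 28.8 CPM in siLuc, 23.4 and 24.1 in siMRG15 and 209 and 228 in siMRGX. The siMRGX pair was high (difference -3.15 ± 0.12, limma adjusted p = 2.65e-10), and siMRG15 did not differ from siLuc beyond the error (-0.10 ± 0.12, limma adjusted p = 0.458). HMOX1 was also above both siLuc libraries in the other knockdowns, at 51.8 and 39.0 CPM in siMRGBP, 31.7 and 33.2 in siBRD8 and 70.8 and 68.7 in siTIP60. GCLM, the modifier subunit of the enzyme that starts glutathione synthesis, stood at 66.6 and 74.0 CPM in siLuc, 18.5 and 17.5 in siMRG15 and 116 and 111 in siMRGX. SLC7A11, the cystine importer, stood at 43.9 and 57.4 CPM in siLuc, 20.8 and 18.6 in siMRG15 and 142 and 140 in siMRGX. OSGIN1, an oxidative stress-induced growth inhibitor, stood at 28.8 and 21.8 CPM in siLuc, 9.61 and 9.74 in siMRG15 and 62.7 and 66.8 in siMRGX. In these 3 genes siMRG15 lay below and siMRGX above both siLuc libraries (GCLM difference -2.59 ± 0.08, limma adjusted p = 9.45e-11; SLC7A11 difference -2.78 ± 0.10, limma adjusted p = 1.55e-10; OSGIN1 difference -2.62 ± 0.10, limma adjusted p = 3.05e-10). AKR1C3, an aldo-keto reductase picked after its value was seen, was the one higher in siMRG15 (difference 0.85 ± 0.10, limma adjusted p = 3.72e-06). SLC7A11 is also on the ATF4 list and ME1 on the fatty acid list.

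NF-kB targets were higher in siMRGX in 21 of 24 measured genes (of 35 listed) and higher in siMRG15 in 2 (median -1.28). TRAF1, a TNF receptor adaptor, stood at 2.40 and 2.37 CPM in siLuc, 2.09 and 1.76 in siMRG15 and 37.2 and 38.8 in siMRGX. BIRC3, an inhibitor of apoptosis and ubiquitin ligase of the same pathway, stood at 9.49 and 11.1 CPM in siLuc, 5.17 and 5.79 in siMRG15 and 54.3 and 47.9 in siMRGX. TRAF1 was high in siMRGX and not in siMRG15 (difference -3.74 ± 0.12, limma adjusted p = 8.73e-11), whereas BIRC3 was below siLuc in siMRG15 and above it in siMRGX (difference -3.01 ± 0.12, limma adjusted p = 4.47e-10). TRAF1 stood above siLuc in the other knockdowns too, at 11 and 7.95 CPM in siMRGBP, 10.3 and 11.1 in siBRD8 and 25.1 and 28.0 in siTIP60. IL8, the neutrophil chemokine CXCL8, stood at 4.24 and 6.24 CPM in siLuc, 1.22 and 0.727 in siMRG15 and 16.7 and 14.9 in siMRGX (difference -3.10 ± 0.21, limma adjusted p = 2.28e-08). CD83, an activation marker of dendritic cells and a known target of the pathway, stood at 13.9 and 13.6 CPM in siLuc, 3.40 and 3.28 in siMRG15 and 13.6 and 12.9 in siMRGX. That gene was low in siMRG15 and not in siMRGX (difference -1.72 ± 0.08, limma adjusted p = 1.26e-09), so TRAF1 and CD83 had the same direction with different knockdowns apart from siLuc. CD83 was as low in siTIP60, at 8.19 and 8.59 CPM in siMRGBP, 13.3 and 13.7 in siBRD8 and 3.58 and 2.98 in siTIP60. TRAF2, a further receptor adaptor, stood at 20.4 and 18.8 CPM in siLuc, 11.5 and 11.7 in siMRG15 and 32.4 and 33.8 in siMRGX (difference -1.43 ± 0.07, limma adjusted p = 1.24e-09). The inhibitors NFKBIA, NFKBIB and NFKBIE had differences of -1.06, -1.50 and -1.39, and the subunits NFKB2 and RELB of -1.62 and -1.38. Higher in siMRG15 were TNFAIP2 (difference 0.98 ± 0.06, limma adjusted p = 1.48e-08) and the growth factor CSF1 (difference 0.67 ± 0.07, limma adjusted p = 1.17e-06), and PTGS2 did not pass (difference 0.21 ± 0.09, limma adjusted p = 0.0597). These last 8 genes were picked after their values were seen.

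ATF4 drives the amino acid response of the integrated stress response, and 21 of 23 measured targets (of 29 listed, ATF4 included) were higher in siMRGX and 2 in siMRG15 (median -0.88). CHAC1, which degrades glutathione, stood at 6.31 and 6.30 CPM in siLuc, 4.71 and 4.84 in siMRG15 and 20.6 and 20.4 in siMRGX. MTHFD2, a mitochondrial folate enzyme, stood at 209 and 230 CPM in siLuc, 103 and 108 in siMRG15 and 339 and 326 in siMRGX. PSAT1, an aminotransferase of serine synthesis, stood at 58.0 and 69.3 CPM in siLuc, 28.8 and 29.2 in siMRG15 and 82.5 and 81.3 in siMRGX. Each had siMRG15 lowest and siMRGX highest (CHAC1 difference -1.90 ± 0.07, limma adjusted p = 1.36e-10; MTHFD2 difference -1.64 ± 0.06, limma adjusted p = 2.98e-10; PSAT1 difference -1.47 ± 0.07, limma adjusted p = 1.98e-09). ATF4 itself had a difference of -1.12 and the feedback pseudokinase TRIB3 of -1.21. The genes higher in siMRG15 were DDIT4 (0.33) and SESN2 (0.24), both inhibitors of mTORC1, and with median-of-ratios factors 0 of the 23 were higher in siMRG15. ATF4, TRIB3, DDIT4 and SESN2 were picked after their values were seen.

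Chaperones and unfolded protein response genes of the endoplasmic reticulum had 8 of 10 measured members (of 19 listed) higher in siMRGX and 1 in siMRG15 (median -0.49). HSPA5, the chaperone BiP, stood at 704 and 585 CPM in siLuc, 177 and 204 in siMRG15 and 376 and 375 in siMRGX. It was below siLuc in both knockdowns, further in siMRG15 (difference -0.98 ± 0.10, limma adjusted p = 1.56e-06). XBP1, a transcription factor of the response, stood at 95.5 and 106 CPM in siLuc, 76.5 and 77.1 in siMRG15 and 153 and 156 in siMRGX (difference -1.0 ± 0.07, limma adjusted p = 1.81e-08). EDEM1, which sends misfolded glycoproteins to degradation, stood at 66.5 and 68.1 CPM in siLuc, 86.7 and 87.9 in siMRG15 and 173 and 166 in siMRGX and was above siLuc in both knockdowns, further in siMRGX (difference -0.95 ± 0.06, limma adjusted p = 6.95e-09). HERPUD1, a degradation factor, was lowest in siMRG15, at 52.4 and 52.8 CPM in siLuc, 36.6 and 35.0 in siMRG15 and 50.3 and 51.9 in siMRGX (difference -0.50 ± 0.06, limma adjusted p = 2.83e-06), and stood at 48.2 and 49.4 CPM in siMRGBP, 68.9 and 67.1 in siBRD8 and 135 and 131 in siTIP60. HERPUD1 in siMRGX did not differ from siLuc beyond the error (-0.04 ± 0.06, limma adjusted p = 0.528). These 4 genes thus did not share 1 order around siLuc.

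MYC and its network split. MYC, the growth-promoting transcription factor, stood at 183 and 161 CPM in siLuc, 146 and 159 in siMRG15 and 404 and 418 in siMRGX. The siMRGX pair was high (difference -1.43 ± 0.08, limma adjusted p = 3.48e-09), and siMRG15 did not pass against siLuc (-0.17 ± 0.08, limma adjusted p = 0.0594). The siBRD8 libraries lay near siMRGX, with 225 and 209 CPM in siMRGBP, 397 and 370 in siBRD8 and 284 and 280 in siTIP60. MXD4, a MAX partner that opposes MYC, stood at 12.2 and 10.2 CPM in siLuc, 66.5 and 67.2 in siMRG15 and 11.6 and 11.3 in siMRGX. TXNIP, a thioredoxin inhibitor whose gene is bound by MondoA and MLX, stood at 12.6 and 13.8 CPM in siLuc, 67.4 and 75.6 in siMRG15 and 16.4 and 16 in siMRGX. Both were highest in siMRG15 (MXD4 difference 2.45 ± 0.09, limma adjusted p = 1.66e-10; TXNIP difference 2.07 ± 0.11, limma adjusted p = 3.70e-09). MYCL1 stood at 6.63 and 6.07 CPM in siLuc, 9.37 and 10.4 in siMRG15 and 3.72 and 4.01 in siMRGX, above siLuc in siMRG15 and below it in siMRGX (difference 1.16 ± 0.09, limma adjusted p = 1.17e-07). Over the list 6 of 9 measured genes (of 15) were higher in siMRG15 and 3 in siMRGX (median 0.70). Those 3 were MYC, MXD1 (difference -0.84) and MXI1 (-0.62). MXD1 and MXI1 are, like MXD4, MAX partners that oppose MYC, and a further one, MXD3, was higher in siMRG15 (0.70). MXD1, MXI1 and MXD3 were picked after their values were seen.

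Genes of ribosome biogenesis and other MYC targets were higher in siMRGX in 12 of 13 measured genes (of 26 listed), with 1 higher in siMRG15 (median -0.82). ODC1, ornithine decarboxylase, the first enzyme of polyamine synthesis, stood at 540 and 629 CPM in siLuc, 155 and 155 in siMRG15 and 699 and 692 in siMRGX. NOP16, a nucleolar protein, stood at 26.9 and 25.3 CPM in siLuc, 17.2 and 17.7 in siMRG15 and 48.5 and 52.2 in siMRGX. The ODC1 difference came mainly from the low siMRG15 libraries (difference -2.16 ± 0.09, limma adjusted p = 4.08e-10), and that of NOP16 from both sides of siLuc (difference -1.48 ± 0.07, limma adjusted p = 7.07e-10). RRP12, a factor of ribosomal RNA maturation, stood at 96.6 and 92.4 CPM in siLuc, 71.6 and 73.6 in siMRG15 and 167 and 178 in siMRGX (difference -1.24 ± 0.06, limma adjusted p = 1.82e-09), and WDR12, of the PeBoW complex of the large subunit, at 56.3 and 61.2 CPM in siLuc, 32.3 and 35.9 in siMRG15 and 81.9 and 79.0 in siMRGX (difference -1.22 ± 0.07, limma adjusted p = 8.74e-09). The exception, picked after its value was seen, was POLR1B, a subunit of RNA polymerase I (difference 0.42 ± 0.06, limma adjusted p = 3.06e-05).

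Promoters of 5 lists whose members lay mostly higher in siMRGX were read for the motif of the factor each list is named for, on both strands of 300-base windows from 250 bases before to 50 after the RefSeq start on GRCh38.p14. None of the motif patterns contains another, and E-box CACGTG reads the same on both strands. The sterol regulatory element TCACNCCAC was in 1 of 10 cholesterol genes with a window, beside 1.26% of 5413 tested genes and 1.15% of 27305 promoters. The kB site, a 10-base pattern of 3 G, 2 bases of any kind, TT, 1 base of any kind and CC, was in 5 of 19 NF-kB targets, beside 6.06% of tested genes and 5.67% of promoters. The ATF4 element TGATGNAA was in 3 of 17 ATF4 targets, beside 2.11 and 3.67%. The antioxidant response element TGACNNNGC was in 3 of 8 NRF2 targets, beside 13.9 and 13.6%. The E-box was in 5 of 10 of the ribosome biogenesis genes, beside 9.05 and 7.43%. A match describes letters in the window and is no sign of binding. Shown for each of the first 4 lists is the window of the member with the smallest adjusted p that holds the motif, 5′ to 3′ along the gene, with the match, on either strand, in capitals:
SREBF2, chr22:41832855-41833154, plus strand: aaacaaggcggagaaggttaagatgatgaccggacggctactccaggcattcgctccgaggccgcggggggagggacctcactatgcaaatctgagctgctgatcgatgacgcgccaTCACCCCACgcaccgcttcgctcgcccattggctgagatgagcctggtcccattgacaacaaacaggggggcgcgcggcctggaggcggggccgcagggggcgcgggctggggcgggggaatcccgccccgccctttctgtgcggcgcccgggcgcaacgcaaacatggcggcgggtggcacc
BIRC3, chr11:102317234-102317533, plus strand: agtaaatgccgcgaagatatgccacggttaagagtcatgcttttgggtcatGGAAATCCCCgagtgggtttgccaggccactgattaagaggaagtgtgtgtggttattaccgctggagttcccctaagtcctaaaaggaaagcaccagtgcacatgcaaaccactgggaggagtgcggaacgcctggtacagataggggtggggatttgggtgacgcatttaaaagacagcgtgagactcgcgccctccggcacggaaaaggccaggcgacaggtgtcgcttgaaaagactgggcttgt
CHAC1, chr15:40953221-40953520, plus strand: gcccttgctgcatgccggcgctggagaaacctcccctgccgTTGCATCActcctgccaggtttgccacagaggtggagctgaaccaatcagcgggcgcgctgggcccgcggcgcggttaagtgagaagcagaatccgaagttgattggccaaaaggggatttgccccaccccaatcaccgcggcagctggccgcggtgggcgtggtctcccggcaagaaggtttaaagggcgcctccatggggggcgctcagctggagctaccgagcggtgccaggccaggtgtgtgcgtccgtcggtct
GCLM, chr1:93909381-93909680, minus strand: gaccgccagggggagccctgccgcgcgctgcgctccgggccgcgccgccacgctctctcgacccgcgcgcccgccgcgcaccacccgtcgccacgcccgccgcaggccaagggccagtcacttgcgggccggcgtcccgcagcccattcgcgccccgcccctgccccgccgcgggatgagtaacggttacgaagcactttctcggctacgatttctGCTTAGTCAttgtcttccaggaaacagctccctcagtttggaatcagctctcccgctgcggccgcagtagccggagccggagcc

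**Figure D4:**
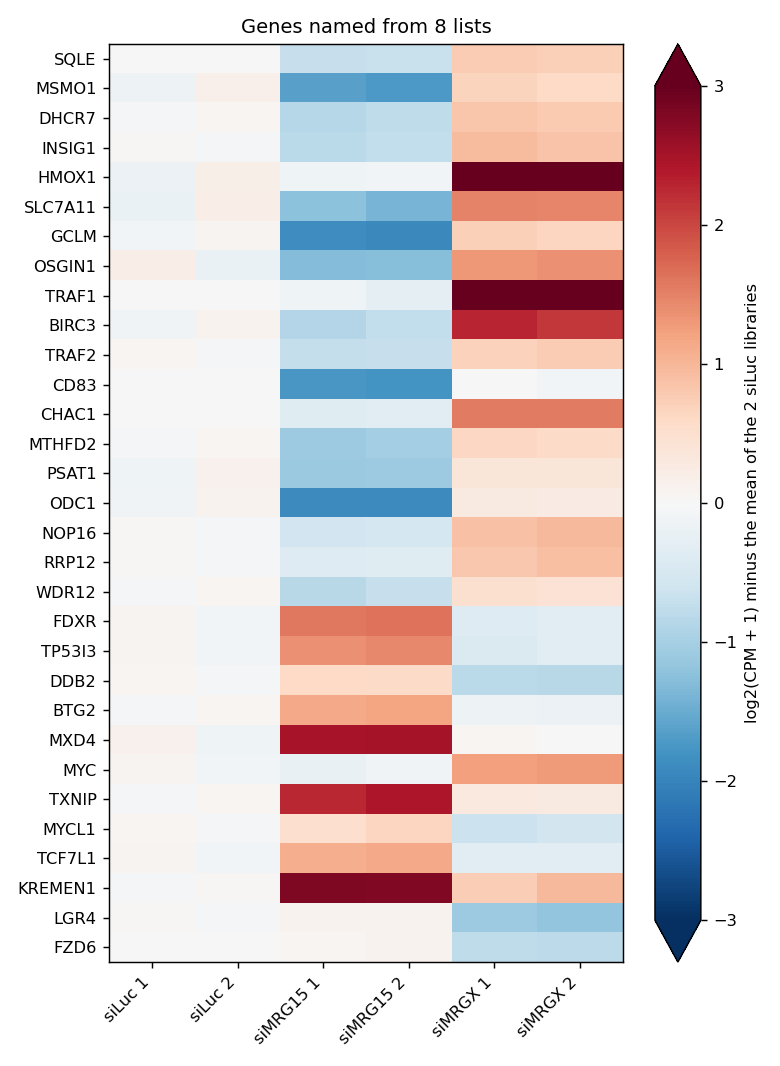
Level in each library relative to the mean of the siLuc libraries (colour, log2(CPM + 1), limits -3 to 3) for 31 genes named from 8 lists (rows) in the siLuc, siMRG15 and siMRGX libraries (columns). Blue is below and red above siLuc, and 3 values lie beyond the limits; CD83 and ODC1 are blue in siMRG15 with siMRGX near siLuc, whereas TRAF1 and HMOX1 are red in siMRGX with siMRG15 near siLuc.

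p53 targets went toward siMRG15, with 16 of 17 measured genes (of 27 listed) higher in siMRG15 and 1 in siMRGX (median 0.59). With median-of-ratios factors 11 passed in that direction, at a median of 0.44. FDXR, the mitochondrial ferredoxin reductase, stood at 59.7 and 53.7 CPM in siLuc, 171 and 176 in siMRG15 and 43.0 and 44.4 in siMRGX. TP53I3, a quinone oxidoreductase known as PIG3, stood at 39.7 and 35.4 CPM in siLuc, 98.5 and 104 in siMRG15 and 27.5 and 29.5 in siMRGX. In both genes siMRG15 was well above siLuc and siMRGX slightly below (FDXR difference 1.97 ± 0.06, limma adjusted p = 8.73e-11; TP53I3 difference 1.79 ± 0.07, limma adjusted p = 2.73e-10). DDB2, a damage sensor of nucleotide excision repair, stood at 79.1 and 72.8 CPM in siLuc, 116 and 113 in siMRG15 and 42.6 and 42.4 in siMRGX (difference 1.41 ± 0.06, limma adjusted p = 3.90e-10). BTG2, an antiproliferative factor, stood at 99.5 and 108 CPM in siLuc, 228 and 238 in siMRG15 and 93.8 and 92.4 in siMRGX, highest in siMRG15 (difference 1.31 ± 0.06, limma adjusted p = 1.41e-09), with 128 and 118 CPM in siMRGBP, 154 and 152 in siBRD8 and 41.2 and 40.5 in siTIP60. Others picked after their values were seen were CDKN1A, the p21 inhibitor of cyclin-dependent kinases, with a smaller difference of 0.36 ± 0.09 (limma adjusted p = 0.00255), and MDM2, the ubiquitin ligase that restrains p53, which was the one target higher in siMRGX (difference -0.84 ± 0.08, limma adjusted p = 3.79e-07).

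Cell cycle genes were mixed. Of 32 mitosis genes 31 had a row, and 18 were higher in siMRGX and 4 in siMRG15 (median -0.27); over the settings tried these counts ran from 14 to 21 and from 2 to 7. ANLN, the scaffold of the cytokinetic ring, stood at 614 and 564 CPM in siLuc, 210 and 240 in siMRG15 and 685 and 674 in siMRGX. It was low in siMRG15 (difference -1.59 ± 0.09, limma adjusted p = 5.97e-09) and siMRGX did not pass against siLuc (0.21 ± 0.09, limma adjusted p = 0.0599). CDC20, the activator of the anaphase-promoting complex, stood at 366 and 385 CPM in siLuc, 169 and 184 in siMRG15 and 308 and 319 in siMRGX (difference -0.83 ± 0.07, limma adjusted p = 2.26e-07). The kinesin KIF2C (difference -0.68 ± 0.06, limma adjusted p = 1.78e-07) and cyclin CCNA2 (difference -0.67 ± 0.06, limma adjusted p = 3.06e-07) were also lowest in siMRG15 of these 3 groups, with 127 and 134 CPM of KIF2C and 138 and 141 CPM of CCNA2. The siTIP60 libraries were lower still for CDC20 (89.0 and 91.0 CPM), KIF2C (71.4 and 75.4) and CCNA2 (47.3 and 47.8). For ANLN they stood above siMRG15, at 303 and 355 CPM. The 9 that did not pass included AURKB, BUB1 and CCNB2, picked after their values were seen, with differences of -0.01, 0.01 and -0.04.

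Of 42 DNA replication genes 35 had a row, 15 higher in siMRGX and 12 in siMRG15 (median -0.09), and with median-of-ratios factors 21 and 10. E2F2, a transcription factor of S phase entry, stood at 29.0 and 28.0 CPM in siLuc, 46.7 and 55.9 in siMRG15 and 10.6 and 12.4 in siMRGX. PCNA, the sliding clamp and also a known p53 target, stood at 206 and 219 CPM in siLuc, 293 and 312 in siMRG15 and 177 and 173 in siMRGX. These were above siLuc in siMRG15 and below it in siMRGX (E2F2 difference 2.06 ± 0.11, limma adjusted p = 4.05e-09; PCNA difference 0.78 ± 0.07, limma adjusted p = 1.96e-07). CDC25A, a phosphatase that activates cyclin-dependent kinases, stood at 65.6 and 62.3 CPM in siLuc, 39.7 and 41.4 in siMRG15 and 102 and 101 in siMRGX (difference -1.30 ± 0.07, limma adjusted p = 3.78e-09), and GINS3, of the replicative helicase, at 37.2 and 36.6 CPM in siLuc, 20.1 and 22.5 in siMRG15 and 49.8 and 49.9 in siMRGX (difference -1.19 ± 0.07, limma adjusted p = 1.17e-08). Both had the opposite order.

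Homologous recombination, in which MRG15 takes part through PALB2, had 9 of 16 measured genes (of 27 listed) higher in siMRGX and 3 in siMRG15 (median -0.36). RAD51AP1, a factor that promotes strand exchange, stood at 52.8 and 57.6 CPM in siLuc, 38.3 and 43.1 in siMRG15 and 88.9 and 84.4 in siMRGX. XRCC2, a recombination mediator, stood at 16.6 and 17.9 CPM in siLuc, 13.2 and 14.7 in siMRG15 and 29.9 and 31.0 in siMRGX. In both genes siMRG15 was slightly under and siMRGX clearly above siLuc (RAD51AP1 difference -1.07 ± 0.07, limma adjusted p = 2.40e-08; XRCC2 difference -1.07 ± 0.09, limma adjusted p = 2.39e-07). RPA2, of the single-strand binding complex, had a difference of -0.91 ± 0.08 (limma adjusted p = 1.89e-07), and XRCC3 a difference of -0.61 ± 0.07 (limma adjusted p = 6.76e-06).

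Wnt signalling genes were higher in siMRG15 in 15 of 18 measured genes (of 30 listed) and in siMRGX in 1 (median 0.66), and with median-of-ratios factors in 12 and 1. KREMEN1, a receptor for the DKK inhibitors, stood at 3.19 and 3.33 CPM in siLuc, 28.5 and 28.2 in siMRG15 and 6.11 and 7.38 in siMRGX. It was above siLuc in both knockdowns, most in siMRG15 (difference 1.93 ± 0.11, limma adjusted p = 4.97e-09). TCF7L1, a transcription factor of the pathway that acts mostly as a repressor, stood at 12.9 and 11.5 CPM in siLuc, 26.9 and 28.0 in siMRG15 and 9.46 and 9.54 in siMRGX (difference 1.44 ± 0.08, limma adjusted p = 3.25e-09). LGR4, the R-spondin receptor, stood at 11.4 and 10.8 CPM in siLuc, 12 and 12.1 in siMRG15 and 4.71 and 4.29 in siMRGX, and the receptor FZD6 at 92.1 and 94.3 CPM in siLuc, 97.4 and 99.8 in siMRG15 and 54.7 and 53.3 in siMRGX. For those 2 receptors siMRG15 did not differ from siLuc beyond the error and siMRGX was low (LGR4 difference 1.25 ± 0.07, limma adjusted p = 5.01e-09; FZD6 difference 0.86 ± 0.05, limma adjusted p = 1.56e-08). AXIN2, a feedback inhibitor and common readout of the pathway, had a difference of 1.01, and the receptor FZD8 was the one higher in siMRGX at -0.86. AXIN2 and FZD8 were picked after their values were seen. The summed level of the 18 genes was 476 and 493 CPM in siMRG15 and 290 and 290 in siMRGX, both below the 594 and 551 of siLuc.

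The insulin-like growth factor axis had 8 of 12 measured genes (of 18 listed) higher in siMRG15 and 2 in siMRGX (median 0.75). That median depended on low genes. It fell to 0.38 with a pseudocount of 5. Among the 9 with a mean of at least 5 CPM it was 0.32, with 5 higher in siMRG15 and 2 in siMRGX. The summed level of the 12 genes was 920 and 877 CPM in siMRG15, 805 and 865 in siMRGX and 1074 and 1000 in siLuc. INSR, the insulin receptor, stood at 5.72 and 5.68 CPM in siLuc, 20.7 and 19.8 in siMRG15 and 7.52 and 8.29 in siMRGX, highest in siMRG15 (difference 1.25 ± 0.09, limma adjusted p = 6.24e-08). IGF2, the growth factor, stood at 49.6 and 40.6 CPM in siLuc, 45.5 and 51.2 in siMRG15 and 23.3 and 22.5 in siMRGX, low in siMRGX (difference 1.04 ± 0.10, limma adjusted p = 5.04e-07). STC1, a secreted glycoprotein that acts on the protease of IGF-binding proteins, stood at 4.54 and 4.87 CPM in siLuc, 3.79 and 3.82 in siMRG15 and 0.847 and 1.10 in siMRGX, also lowest in siMRGX (difference 1.28 ± 0.09, limma adjusted p = 3.86e-08). IGF2BP3, an RNA-binding protein of IGF2 messenger RNA, stood at 7.16 and 8.25 CPM in siLuc, 0.935 and 0.980 in siMRG15 and 8.15 and 7.31 in siMRGX. It was lowest in siMRG15 and went against the list (difference -2.16 ± 0.10, limma adjusted p = 1.31e-09), with 8.09 and 6.75 CPM in siMRGBP, 3.32 and 3.80 in siBRD8 and 8.57 and 9.05 in siTIP60.

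Among 24 genes of MAP kinase signalling and its feedback 17 had a row, 8 higher in siMRGX and 4 in siMRG15 (median -0.20). MAPK6, the atypical kinase ERK3, stood at 260 and 272 CPM in siLuc, 38.5 and 40.3 in siMRG15 and 150 and 142 in siMRGX. It was below siLuc in both knockdowns and lowest in siMRG15 (difference -1.86 ± 0.06, limma adjusted p = 1.12e-10). MYEOV stood at 81.4 and 97.8 CPM in siLuc, 108 and 106 in siMRG15 and 326 and 315 in siMRGX, high in siMRGX (difference -1.58 ± 0.09, limma adjusted p = 4.92e-09). MYEOV was higher still in siMRGBP, at 461 and 398 CPM, and stood at 233 and 227 in siBRD8 and 227 and 240 in siTIP60. ETV1, an ETS factor, stood at 7.29 and 7.95 CPM in siLuc, 13.5 and 14.6 in siMRG15 and 4.16 and 4.10 in siMRGX (difference 1.55 ± 0.09, limma adjusted p = 1.03e-08), and the immediate early gene IER2 had a difference of -1.03 ± 0.07 (limma adjusted p = 2.47e-08).

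Matrix and TGF-beta genes, MMP3 among them, did not lean one way: of 28 measured (of 37 listed) 10 were higher in siMRGX and 8 in siMRG15, and the median of 0.04 turned to -0.11 with median-of-ratios factors. TNC, tenascin C, stood at 381 and 343 CPM in siLuc, 137 and 124 in siMRG15 and 517 and 610 in siMRGX (difference -2.10 ± 0.09, limma adjusted p = 8.20e-10). COL6A3, a chain of collagen VI, stood at 396 and 352 CPM in siLuc, 80.7 and 71.6 in siMRG15 and 279 and 307 in siMRGX, and EFEMP1, fibulin 3, at 105 and 88.4 CPM in siLuc, 18.2 and 19.5 in siMRG15 and 72.7 and 73.0 in siMRGX. These 3 genes were low in siMRG15, and in siMRGX COL6A3 and EFEMP1 were slightly below siLuc (COL6A3 difference -1.93 ± 0.10, limma adjusted p = 1.83e-09; EFEMP1 difference -1.90 ± 0.10, limma adjusted p = 2.32e-09). The fibrillar collagens COL1A1, COL3A1, COL5A1 and COL5A2, picked after their values were seen, went toward siMRG15, with differences of 0.73, 0.98, 0.94 and 1.04.

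YAP targets had 7 of 10 measured genes (of 16 listed) higher in siMRGX and 0 in siMRG15 (median -0.76). CTGF, a matricellular growth factor now named CCN2, stood at 648 and 593 CPM in siLuc, 188 and 182 in siMRG15 and 469 and 450 in siMRGX. It was below siLuc in both knockdowns, further in siMRG15 (difference -1.31 ± 0.07, limma adjusted p = 2.00e-09). The cardiac ankyrin repeat protein ANKRD1 stood at 125 and 117 CPM in siLuc, 102 and 113 in siMRG15 and 198 and 180 in siMRGX (difference -0.81 ± 0.07, limma adjusted p = 3.47e-07). DLC1, a GTPase-activating protein (difference -1.12 ± 0.07, limma adjusted p = 8.85e-09), and PTPN14, a phosphatase that binds YAP (difference -1.06 ± 0.12, limma adjusted p = 2.42e-06), were lowest in siMRG15.

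Actin cytoskeleton and adhesion genes were higher in siMRGX in 14 of 23 measured (of 35 listed) and in siMRG15 in 4 (median -0.44). LCP1, an actin-bundling plastin, stood at 18.1 and 17.4 CPM in siLuc, 3.38 and 4.13 in siMRG15 and 24.6 and 26.6 in siMRGX. ITGB3, integrin beta 3, stood at 6.24 and 7.70 CPM in siLuc, 1.35 and 1.11 in siMRG15 and 6.4 and 6.04 in siMRGX, and ITGA2, integrin alpha 2, at 138 and 162 CPM in siLuc, 44.6 and 41.7 in siMRG15 and 107 and 106 in siMRGX. All were low in siMRG15 without overlap (LCP1 difference -2.49 ± 0.10, limma adjusted p = 3.44e-10; ITGB3 difference -1.70 ± 0.11, limma adjusted p = 1.41e-08; ITGA2 difference -1.28 ± 0.09, limma adjusted p = 2.31e-08). ACTA2, smooth muscle actin, was highest in siMRG15, at 4.14 and 3.72 CPM in siLuc, 11.4 and 11.3 in siMRG15 and 3.26 and 3.83 in siMRGX (difference 1.44 ± 0.10, limma adjusted p = 2.53e-08). The siBRD8 and siTIP60 libraries also stood above siLuc, with 4.12 and 5.08 CPM in siMRGBP, 8.67 and 8.24 in siBRD8 and 8.57 and 8.54 in siTIP60.

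**Figure D5:**
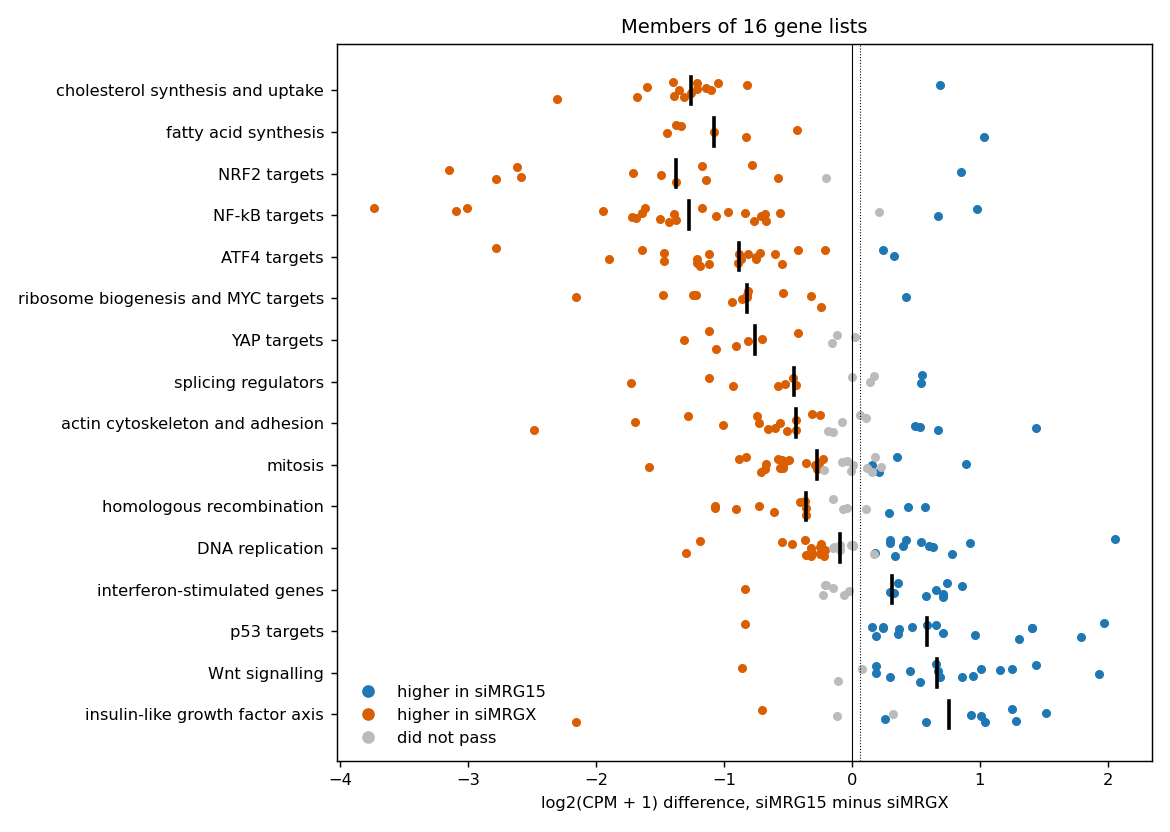
Difference siMRG15 minus siMRGX (x axis, log2(CPM + 1)) of each measured member of 16 gene lists (rows), in blue where higher in siMRG15, orange where higher in siMRGX and grey where the test was not passed, with a black bar at each list's median and a dotted line at the median of all genes, 0.06. The medians run from -1.38 for NRF2 targets to 0.75 for the insulin-like growth factor axis.

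Splicing regulators were examined because MRG15 is known to recruit PTBP1 to marked exons. Of 30 listed 12 had a row, 7 higher in siMRGX and 2 in siMRG15 (median -0.45). PTBP1, the repressor itself, stood at 445 and 400 CPM in siLuc, 419 and 447 in siMRG15 and 639 and 660 in siMRGX. It was higher in siMRGX (difference -0.58 ± 0.08, limma adjusted p = 1.20e-05) and did not pass against siLuc in siMRG15 (0.04 ± 0.08, limma adjusted p = 0.686). PTBP2, its paralog known to be repressed by PTBP1 through exon skipping, stood at 67.0 and 69.8 CPM in siLuc, 44.5 and 44.1 in siMRG15 and 30.6 and 29.7 in siMRGX, the reverse order and below siLuc in both (difference 0.54 ± 0.06, limma adjusted p = 3.19e-06). MBNL1, muscleblind, stood at 256 and 276 CPM in siLuc, 114 and 112 in siMRG15 and 384 and 374 in siMRGX (difference -1.73 ± 0.07, limma adjusted p = 3.68e-10), and PTBP3 and QKI had differences of -1.12 and -0.93.

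Of the genes studied for splicing by MRG15 and PTBP1, FGFR2 stood at 27.3 and 25.6 CPM in siLuc, 20.1 and 20.6 in siMRG15 and 13.8 and 14.1 in siMRGX (difference 0.51 ± 0.06, limma adjusted p = 6.97e-06), and TPM1 at 196 and 178 CPM in siLuc, 100 and 105 in siMRG15 and 123 and 121 in siMRGX (difference -0.25 ± 0.07, limma adjusted p = 0.00707). Both were below siLuc in both knockdowns, and the TPM1 call was lost without siMRG15 replicate 1 (limma adjusted p = 0.0573). In the authors' deposited table of transcripts FGFR2 had 2 transcripts, both marked down in siMRGX and 0 in siMRG15. It listed 16 transcripts of TPM1, with 8 marked down in siMRGX and 4 in siMRG15. For PKM the same table of the authors' deposited marks had 5 transcripts, 2 marked down in siMRG15 and 2 marked up in siMRGX. PTBP2 had 5 in the authors' deposited table, 2 marked down in siMRGX and 0 in siMRG15. Gene totals do not show which exons were used.

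Interferon-stimulated genes had 9 of 16 measured members (of 30 listed) higher in siMRG15 and 1 in siMRGX (median 0.31), and with median-of-ratios factors 8 and 4. STAT2, the interferon signal transducer, stood at 50.2 and 53.1 CPM in siLuc, 79.3 and 81.6 in siMRG15 and 42.7 and 44.9 in siMRGX (difference 0.86 ± 0.06, limma adjusted p = 3.77e-08). DDX58, the RNA sensor RIG-I, stood at 13.4 and 12.3 CPM in siLuc, 11.9 and 13.0 in siMRG15 and 23.0 and 23.4 in siMRGX, higher in siMRGX than in siMRG15 (difference -0.84 ± 0.08, limma adjusted p = 5.13e-07). It was higher still in siMRGBP and siTIP60, with 75.6 and 69.4 CPM in siMRGBP, 13.7 and 13.7 in siBRD8 and 30 and 34.0 in siTIP60. IFIT1 stood at 9.96 and 11.3 CPM in siLuc, 3.70 and 4.72 in siMRG15 and 2.15 and 2.18 in siMRGX. That gene was below siLuc in both knockdowns, further in siMRGX (difference 0.71 ± 0.11, limma adjusted p = 6.81e-05), and IFIT2 was low in all 6 libraries, at 0.378 and 0.420 CPM in siLuc, 1.13 and 1.42 in siMRG15 and 0.488 and 0.238 in siMRGX (difference 0.74 ± 0.12, limma adjusted p = 6.87e-05).

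Markers of the cell type and of others were read beside these results. Of 14 osteoblast markers 6 had a row, 4 higher in siMRGX and 2 in siMRG15, and their summed level was 1838 and 1785 CPM in siMRG15, 1121 and 1201 in siMRGX and 2470 and 1954 in siLuc. Most of that sum lay in COL1A1 (difference 0.73), so it does not give the level of the other members. PHEX, a low gene, had a difference of -0.64. COL1A1 and PHEX were picked after their values were seen. RUNX2, the defining factor of the lineage, was present in all, at 44.5 and 45.3 CPM in siLuc, 45 and 42.7 in siMRG15 and 30.5 and 30.4 in siMRGX (difference 0.51 ± 0.06, limma adjusted p = 6.70e-06). ALPL, alkaline phosphatase, stood at 18.8 and 17.0 CPM in siLuc, 9.28 and 10.5 in siMRG15 and 25.9 and 25.1 in siMRGX (difference -1.29 ± 0.10, limma adjusted p = 1.11e-07), and osteopontin, SPP1, at 11.2 and 9.95 CPM in siLuc, 3.92 and 4.90 in siMRG15 and 13.4 and 14.8 in siMRGX (difference -1.49 ± 0.12, limma adjusted p = 1.17e-07). Of 17 erythroid and myeloid markers of K562, the other line of the series, 3 had a row, with HBA1 at or under 0.0297 CPM and SPI1 at or under 0.0891 CPM in the 6 libraries. EPOR was the one of them that passed (difference 0.39 ± 0.09, limma adjusted p = 0.00133). Of 14 epithelial markers 6 had a row, 2 higher in siMRGX and 1 in siMRG15, with KRT18 at 91.8 and 76.1 CPM in siLuc, 45.3 and 46.8 in siMRG15 and 137 and 148 in siMRGX (difference -1.60 ± 0.08, limma adjusted p = 2.33e-09) and the claudin CLDN4 at 38.4 and 31.2 CPM in siLuc, 23.7 and 24.3 in siMRG15 and 7.54 and 7.97 in siMRGX (difference 1.51 ± 0.09, limma adjusted p = 9.45e-09). Of 11 leukocyte markers 5 had a row, 3 higher in siMRG15 and 0 in siMRGX. The defining one, PTPRC, was under 1 CPM in every library of the 3 groups (difference -0.32 ± 0.16, limma adjusted p = 0.0997). Its call changed with the test: edgeR gave -1.24 (adjusted p = 0.00386) and DESeq2 -1.26 (adjusted p = 0.0125), and limma passed it with a pseudocount of 0.5 (-0.50, adjusted p = 0.0328) and on the 4 libraries alone (adjusted p = 0.00218). CD34, which other cells also express, was lower in siMRGX (difference 1.92 ± 0.09, limma adjusted p = 1.05e-09). In bulk RNA a change in the number of cells of a kind and a change of RNA per cell cannot be told apart.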

How the data were processed

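Poly(A) RNA of U2OS cells was measured in 12 libraries, 6 siRNA groups of 2, grouped by the siRNA in the labels. The 4 K562 chromatin immunoprecipitation samples were not analysed here. Build hg19 is named in the submitters' processing notes, beside MACS2 2.0.10, Bowtie2 2.1.6, featureCounts (Subread 2.0.0) and minimap2 2.17-r941, without roles. The authors deposited CPM (counts scaled to library size) per gene and library for genes they had selected. How genes were selected, libraries scaled and strand handled is not given in the sources used here, so overlapping antisense genes cannot be told apart. The authors' deposited transcript table holds marks of 0 or 1 and no values. Of 8813 rows 5 repeats were removed, which left 8808 genes, 15 with spreadsheet-retyped names that are not named. Current symbols of GRCh38.p14 matched 6721 names and older ones 591. The authors' 6 columns of group means and 4 further sheets were not used.

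CPM are not counts, so limma 3.58.1 (R 4.3.3, intensity trend, two-sided) was run on log2(CPM + 1) with 6 group means over 12 libraries (residual degrees of freedom 6), no further filter and Benjamini-Hochberg adjustment over 8808 genes, threshold 0.05. In 9 libraries, all siLuc, siMRG15 and siMRGX libraries included, 100% of values came out as whole reads (tolerance 0.01 reads), and edgeR 4.0.16 and DESeq2 1.42.0 were run as alternatives on these reads of 8 libraries of 4 groups. The scripts were checked on simulated data. Further alternatives were pseudocounts of 0.5 and 5, a minimum mean of 5 CPM, median-of-ratios and TMM factors, a replicate block, the 4 libraries alone and leaving out each siMRG15 or siMRGX library. For comparisons against siLuc each siLuc library was also left out. Libraries of the other knockdowns were not left out in turn. Named genes were the paralogs, MRGBP, BRD8 and KAT5, the 12 largest differences each way without overlap, up to 4 members of each list described, by smallest adjusted p, and every measured MRG, TIP60, SIN3 or PTBP1 member. The comparison, its members and the 35 gene lists were chosen with earlier results of these data known, so lists have counts and medians and no set test. Sequences are from RefSeq, GRCh38.p14.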

Additional observations from a re-analysis of the deposited data

How the results depend on the processing

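The counts of 2-fold differences depended on the added constant and the test. With a pseudocount of 5 in place of 1, 429 genes were at least 2-fold higher in siMRG15 and 512 in siMRGX, with 0.5 they were 1349 and 883, with edgeR on recovered reads 1845 and 1194, and with DESeq2 1830 and 1175. Among the 4915 genes with a mean of at least 5 CPM, 4141 passed, 1903 of them higher in siMRG15, 663 at least 2-fold, and 2238 higher in siMRGX; fewer genes were tested. In all, edgeR called 6402 genes and DESeq2 6031. Leaving out 1 library gave 6000 to 6073 genes, 3301 to 3341 higher in siMRG15 and 2685 to 2749 in siMRGX, with 1042 to 1063 and 748 to 797 at least 2-fold, with the single library left in a group taken to have the spread of the rest. The fit to 4 libraries alone called 6997. With the replicate number as a block 6507 genes passed. The deviations of siMRG15 and siMRGX replicate 1 correlated at -0.0709, so the numbers showed no pairing of these groups. Over 15 pairs of groups the correlation ran from -0.47 to 0.183. The deviations of different groups were thus not all unrelated, and the reason was not tested. Of 147 named genes 130 kept their direction and their side of the threshold under all 13 alternatives. Many of them were named for a large difference or a small adjusted p in the main fit, so that share does not stand for all genes. BRD8, at 0.00, turned to -0.15 with median-of-ratios factors and -0.05 with TMM, and ran from -0.04 (without siMRG15 replicate 2) over -0.02 (without siMRGX replicate 2) to 0.05 when 1 library was left out. The near-zero HBA1 ran from -0.01 to 0.03 and SPI1 from -0.01 to 0.07 in the same way. Against siLuc in siMRGX, BTG2 turned to 0.01 and CCNA2 to 0.02 with median-of-ratios factors. RBBP4 passed with those factors (-0.27) and TMM (-0.17), and MSL3P1 with the former (-0.21). The cause of these shifts was not tested. In these 4 libraries 1 read is worth 0.0105 to 0.0148 CPM, so HBA1 and SPI1 rest on a few reads.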

Other observations

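Of 14 measured histone genes (of 23 listed) 5 were higher in siMRGX and 2 in siMRG15, and the median of -0.03 lay under the 0.06 of all genes. H2AFY2, a macroH2A variant known for its place on silent chromatin, stood at 17.3 and 15.1 CPM in siLuc, 27.1 and 27.8 in siMRG15 and 12.4 and 13.0 in siMRGX (difference 1.06 ± 0.09, limma adjusted p = 2.06e-07). H2AFJ stood at 7.36 and 6.43 CPM in siLuc, 6.47 and 5.90 in siMRG15 and 10.4 and 12.7 in siMRGX (difference -0.80 ± 0.10, limma adjusted p = 8.21e-06), and HIST1H2BK, at 668 and 679 CPM in siLuc, 456 and 428 in siMRG15 and 627 and 647 in siMRGX, was lowest of these in siMRG15 (difference -0.53 ± 0.09, limma adjusted p = 1.24e-04) and stood at 611 and 496 CPM in siMRGBP, 1006 and 1019 in siBRD8 and 410 and 383 in siTIP60. H2AFX, the variant phosphorylated at DNA breaks, had a difference of -0.38 ± 0.10 (limma adjusted p = 0.00537).

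Among 27 autophagy and lysosome genes 9 had a row, with 4 higher each way (median -0.12). NPC1, the lysosomal cholesterol exporter, stood at 63.3 and 60.8 CPM in siLuc, 30 and 30.6 in siMRG15 and 73.0 and 70.3 in siMRGX (difference -1.21 ± 0.06, limma adjusted p = 1.67e-09). CTSL1, cathepsin L, stood at 37.2 and 30.9 CPM in siLuc, 19.3 and 20.9 in siMRG15 and 42.4 and 43.7 in siMRGX (difference -1.06 ± 0.08, limma adjusted p = 7.28e-08), and the adaptor SQSTM1 had a difference of -0.88 ± 0.11 (limma adjusted p = 7.25e-06). All were lowest in siMRG15, whereas WIPI1, an autophagosome factor, was highest there (difference 0.75 ± 0.08, limma adjusted p = 2.01e-06). Purine synthesis had 4 of 15 genes with a row, 3 higher in siMRGX and 1 in siMRG15. IMPDH1, which commits purines to guanine nucleotides, stood at 12.3 and 11.6 CPM in siLuc, 48.9 and 54.6 in siMRG15 and 65.7 and 68.8 in siMRGX, several times the siLuc level in both knockdowns and slightly higher in siMRGX (difference -0.37 ± 0.07, limma adjusted p = 2.38e-04). IMPDH1 was above siLuc in the other knockdowns too. Its levels there were 73.5 and 68.6 CPM in siMRGBP, 63.2 and 62.5 in siBRD8 and 45.3 and 44.5 in siTIP60. HPRT1, PPAT and ADSSL1 had differences of -0.66, -0.59 and 0.61.

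Few genes of oxidative phosphorylation (5 of 35) or of the cytosolic ribosome (2 of 33) were in the table, and of 15 mitochondrially encoded genes 0 were. SDHD, of succinate dehydrogenase, stood at 59.3 and 70.7 CPM in siLuc, 31.8 and 30.4 in siMRG15 and 75.6 and 74.3 in siMRGX, lowest in siMRG15 (difference -1.24 ± 0.10, limma adjusted p = 8.43e-08), with 70.6 and 58.7 CPM in siMRGBP, 62.9 and 69.6 in siBRD8 and 41.9 and 43.0 in siTIP60. UQCRC2, of complex III, had a difference of -0.21 ± 0.07 (limma adjusted p = 0.011), lost without siMRG15 replicate 1 (limma adjusted p = 0.0849), and NDUFA4 and NDUFV2 did not pass (limma adjusted p = 0.116 and 0.191). RPS20 stood at 464 and 480 CPM in siLuc, 493 and 538 in siMRG15 and 380 and 358 in siMRGX (difference 0.48 ± 0.07, limma adjusted p = 2.00e-05), and RPL30, whose siLuc libraries lay at 39.5 and 16.7 CPM, did not pass (difference -0.31 ± 0.27, limma adjusted p = 0.316). Fitted to the 4 siMRG15 and siMRGX libraries alone, RPL30 and NDUFA4 passed (limma adjusted p = 8.55e-05 and 3.38e-04), and NDUFV2 passed without siMRG15 replicate 2 (0.35, limma adjusted p = 0.0317). Ribosomal protein genes have many pseudogene copies, so their reads may be shared. Protein-coding genes made up 6678 of the tested genes, of which 44.0% were higher in siMRG15 and 35.4% in siMRGX. Of 219 long noncoding genes 41.6 and 28.3% were.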
